A study of Mus musculus with 9 samples.

Results

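The response of Tcf1- and Lef1-deficient CD8+ T cells to cytokine was followed through the sites bound by CTCF. The comparison set 2 libraries of cells cultured for 72 h with IL-7 and IL-15 against 2 libraries of cells taken at 0 h, 4 of the 9 libraries of the series. Members were taken by their sample titles: deficient naive CD8 and deficient stimulated CD8 at 72 h, each with replicates 1 and 2. All came from spleen, from mice with hCD2-Cre (Cre under the human CD2 promoter, active in lymphocytes), a Rosa26-lsl-GFP reporter and floxed Tcf1 and Lef1 alleles, given in the labels as Tcf1-/-Lef1-/- and called DKO here. Cells were sorted at the start as GFP+ TCRbeta+ CD62Lhi CD44lo-med CD8+, and live cells were used at each time. The labels give no age or sex, nor do they say that the replicates came from separate animals, so a p-value here reflects how far these samples vary, and that variation may be technical. Wild-type (WT) cells with the same Cre and reporter, 2 libraries at each time, served to show where DKO differed.

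CTCF is a zinc-finger protein that binds a long DNA motif, blocks enhancers at insulators and, with cohesin, anchors chromatin loops. Tcf1 and Lef1 are related HMG-box factors that set and maintain T cell identity. IL-7 and IL-15 are cytokines that keep naive and memory CD8+ T cells alive and drive slow homeostatic division. CTCF was mapped by CUT&RUN, in which a nuclease tethered to an antibody cuts free the DNA around the bound protein. The files are peak lists, with no expression values. The labelled cell type and the loss of Tcf1 and Lef1 could therefore not be checked from them. Positions are on mm9, chromosomes 1 to 19. No gene is named and no sequence is printed, because a genome and annotation of mm9 were not used here.

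The DKO lists at 72 h were short and nested within the lists at 0 h. At 0 h the libraries held 29570 and 30647 autosomal peaks, and at 72 h they held 10078 and 15829. The groups did not overlap, with 30108.5 ± 762 (SD, n = 2) against 12953.5 ± 4067 (n = 2). The exact two-sided permutation test gave p = 0.33, the smallest that 2 libraries against 2 allow. WT lists were shorter at 72 h as well, with 31798 and 30234 autosomal peaks at 0 h and 16909 and 25940 at 72 h. The shorter lists are therefore not read as a trait of DKO. Of the DKO 72 h peaks, 99.6% in replicate 1 and 99.1% in replicate 2 lay in a merged region with a peak in at least 1 DKO library at 0 h. Peaks were merged into a region wherever they overlapped by 1 bp or more. Read totals are not in the sources used here, so fewer bound sites and a lower yield of the assay cannot be told apart. The IgG control of WT cells had 2 autosomal peaks, and 0 DKO regions overlapped them.

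Whether a naive site was listed again at 72 h followed its rank at 0 h. Both 0 h libraries had a peak at 26618 regions. Of these, 9613 (36.1%) had a peak in both 72 h libraries, 5737 (21.6%) in a single one and 11268 (42.3%) in neither. The regions were ranked by the authors' fold (the enrichment column of a narrowPeak list, read as usual for that layout), averaged over the 0 h libraries, and split into deciles. In the highest decile, 98.4% were listed in 72 h replicate 1 and 99.9% in replicate 2. In the fifth decile these shares were 14.0% and 50.5%, and in the lowest 0.977% and 5.67%. Of the 2662 regions in the highest decile, 2 had no peak in either 72 h library, and 17 of 2662 in the ninth. The 72 h libraries thus differed most from each other in the middle of the range, at sites whose median fold at 0 h was between 8.86 and 16.0.

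**Figure D1:**
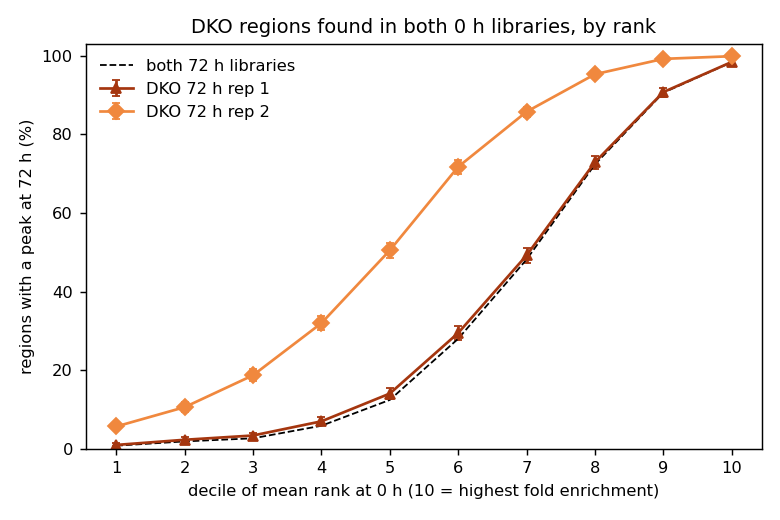
Share of DKO regions found in both 0 h libraries that had a peak at 72 h (y axis, %), by decile of mean fold rank at 0 h (x axis, 10 highest), for each 72 h library and for both together. Bars are exact 95% Clopper-Pearson intervals. Nearly all of the highest decile was found (98.4% and 99.9%), against 0.977% and 5.67% of the lowest.

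Sites in dense arrays were listed at 72 h less often than isolated sites of like rank. The measure was taken in deciles 4 to 7, where the share found was neither near 0 nor near all. Sites with no other 0 h region within 50 kb had a peak in 30.8% of cases in 72 h replicate 1 (95% Clopper-Pearson interval 28.4% to 33.3%, 1388 regions). Sites with 6 or more such neighbours had one in 18.6% (16.9% to 20.4%, 1991 regions). In replicate 2 the shares were 68.5% (66.0% to 71.0%) and 50.03% (47.8% to 52.2%). Shares for 1 to 2 and for 3 to 5 neighbours lay in between in each library, at 27.4% and 23.6% in replicate 1 and 64.2% and 57.8% in replicate 2. The intervals cover counting error only, since sites of 1 library are not replicates of a condition. Median fold at 0 h was 11.6 for the isolated and 11.7 for the densest sites, so their levels at 0 h were close.

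The same measure between the 0 h libraries showed no such fall, but over lists of near equal length (29570 and 30647 peaks) and in lower deciles. It is therefore no control for the shorter lists at 72 h, and the part of list length was not tested. In deciles 1 to 3, chosen because some sites are missed there, 69.4% of the isolated and 73.2% of the densest sites of replicate 1 were found in replicate 2, and 63.2% and 63.3% in the reverse direction. Between the 72 h libraries, sites of replicate 2 in deciles 4 to 7 were found in replicate 1 at 64.6%, 66.2%, 66.2% and 56.1% in order of density, the last over 132 regions (47.2% to 64.7%). Deciles and neighbours were there taken among the regions of 72 h replicate 2. In WT cells the share was lower at dense sites as well. It was 66.3% at isolated and 57.8% at the densest sites in WT 72 h replicate 1, and 94.1% and 86.8% in replicate 2, where nearly all sites were found. The mean fall in DKO was 15.4 ± 4.41 percentage points (SD, n = 2). Points are not comparable between libraries so close to and so far from all sites found. As odds ratios of isolated over densest sites, the values were 1.95 and 2.17 in DKO and 1.44 and 2.45 in WT, and the genotypes overlapped. Base composition and distance to promoters were not tested.

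**Figure D2:**
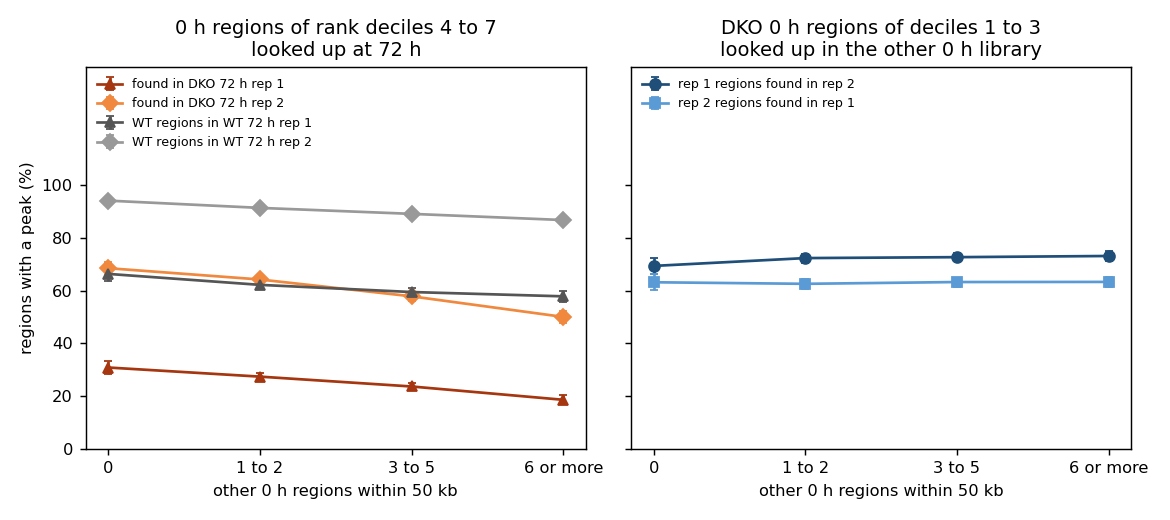
Share of regions with a peak (y axis, %) by the number of other 0 h regions within 50 kb (x axis). Left, 0 h regions of rank deciles 4 to 7 looked up in each 72 h library of the same genotype; right, DKO 0 h regions of deciles 1 to 3 looked up in the other 0 h library. Bars are exact 95% Clopper-Pearson intervals. At 72 h the share is lower at dense sites in all 4 libraries, from 68.5% to 50.03% in DKO replicate 2. Between the 0 h libraries there is no such fall, but their lists are of near equal length and lower deciles were used.

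To compare lists of unequal length, each was shortened to as many peaks as the shortest list held, taking the peaks of highest −log10 p as the authors gave it. This left 10177 and 10189 autosomal peaks at 0 h and 10078 and 10121 at 72 h. The last peak kept had a −log10 p of 35.8 and 38.1 at 0 h, 10.998 in 72 h replicate 2 and 4.24 in replicate 1, whose whole list was kept. Merging gave 13553 regions, and 6812 (50.3%) had a peak in all 4 shortened lists. Both 0 h and neither 72 h list held 975 regions (naive-only, 7.19% of those tested), and both 72 h and neither 0 h list held 701 (72 h-only, 5.17%). A further 983 regions were in 72 h replicate 1 alone. No p-value is given per region, since 2 libraries against 2 cannot go below 0.33. WT cells at the same length gave 776 naive-only (5.92%) and 686 72 h-only regions (5.23%) of 13106.

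By the call, naive-only sites had to be in the part of both 0 h lists that was kept, so their place there is not a result. That part was 10177 of 29570 and 10189 of 30647 autosomal peaks. The median rank percentile of these sites by fold in the whole 0 h lists was 66.4, with quartiles of 55.0 and 75.1. Of the 975, 9 were above the 90th percentile. In the lists as deposited, 535 (54.9%) had no peak at 72 h and 440 (45.1%) had one in 72 h replicate 2 below the part kept. A peak in 72 h replicate 1 was not possible under the call, since that list was kept whole. The highest-ranked was chr15:103012225-103014058, with a fold of 34.6 and 34.5 at 0 h and 7.16 in 72 h replicate 2. Next came chr4:41071077-41072002 (35.0 and 31.8 at 0 h, no peak at 72 h), chr10:62575754-62576834 (28.6 and 34.5, then 4.61 in 72 h replicate 2) and chr2:163899594-163900339 (29.7 and 32.7, no peak at 72 h). Those at chr5:118694698-118695482, chr18:88939244-88940850, chr10:87834544-87835180 and chr10:77944413-77945266 were at rank percentiles 87.7 to 94.3 of the 0 h lists, and each had a peak in 72 h replicate 2, with folds of 6.23, 7.62, 5.94 and 6.23. Nearly all naive-only sites had a peak in WT naive cells too, in 99.3% and 98.9% of cases in the WT 0 h libraries. In WT cells at 72 h the shares were 55.9% and 89.6%. Shares in WT at other DKO regions of like rank at 0 h were not measured. The WT shares are therefore not read as a trait of naive-only sites.

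Most 72 h-only sites had a peak in the 0 h lists as deposited, as nearly all 72 h peaks did. Of the 701, 676 (96.4%) had a peak in both 0 h lists, 9 in a single one and 16 (2.28%) in neither. Over all autosomal 72 h peaks, 99.3% in replicate 1 and 97.9% in replicate 2 lay in a region with a peak in both 0 h libraries. By the call, any 0 h peak at a 72 h-only site lay below the part of the list that was kept. The highest-ranked was chr9:107937656-107938231, whose fold was 6.96 and 7.71 at 0 h and 16.8 and 20.5 at 72 h. It was followed by chr19:34657434-34657923 (13.1 and 13.5, then 12.8 and 19.2), chr14:25981140-25981817 (12.7 and 9.24, then 11.7 and 17.1) and chr9:62820069-62820496 (5.36 and 11.9, then 12.5 and 15.5). Not all of the named sites were weak at 0 h, since the median fold of the whole 0 h lists was 10.4 and 10.3. At chr9:21456448-21456968 there was no peak in 0 h replicate 1, a fold of 5.48 in 0 h replicate 2, and folds of 11.1 and 15.3 at 72 h. At chr7:17266637-17267313 the DKO folds were 10.4 and 12.4 at 0 h and 10.8 and 15.3 at 72 h, while in WT there was no peak in 0 h replicate 1, a fold of 4.32 in 0 h replicate 2, and folds of 8.14 and 12.4 at 72 h. The others named by the rule were chr8:96937137-96938019 and chr2:157992409-157992901.

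Regions of each kind overlapped between the genotypes in part. Of the DKO naive-only regions, 272 (27.9%) overlapped a WT naive-only region, which was 35.1% of the WT list. Of the DKO 72 h-only regions, 177 (25.2%) overlapped a WT 72 h-only region, 25.8% of the WT list. Another region of the same call lay within 50 kb at 20.3% of the 975 naive-only and 8.84% of the 701 72 h-only regions. For the 6812 regions in all 4 shortened lists the share was 53.0%. These shares depend on the size of each set, so they are not read as a trait of naive-only regions. The mean number of any merged regions within 50 kb was 1.89, 1.39 and 1.59 in the same order. The share of regions that were naive-only ran from 5.10% to 9.42% over the 19 chromosomes, highest on chromosome 19, and the share that were 72 h-only from 3.65% to 7.48%, highest on chromosome 1. These differences were not tested.

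The densest naive-only stretch was chr19:3999847-4310502, where 9 of 20 regions were naive-only, 0 were 72 h-only and 6 were in all 4 lists. The next were chr8:86590294-86794776 (6 of 9), chr5:123127841-123494597 (5 of 14) and chr5:134655471-134746148 (5 of 7). The densest stretches of 72 h-only regions were chr1:90017365-90481422 (4 of 11), chr1:140032861-140196421 (4 of 5, with the other 1 naive-only and 0 in all 4 lists), chr16:10571842-10844633 (4 of 8) and chr1:163601084-163893650 (3 of 10, with 1 naive-only). At the threshold itself, calls turned on very small differences. The naive-only regions nearest inside it, chr8:86176050-86176860 and chr3:100814451-100815271, had their weaker peak at list positions 10336 and 10334. The regions nearest outside it, chr9:44541995-44543480 and chr5:73543222-73543961, had theirs at 10340 and 10341, with the same −log10 p of 38.1 and 35.8. For 72 h-only regions, chr8:73345218-73345779 and chr16:44058995-44059367 lay nearest inside (the last position and position 10337 in replicate 1), and chr15:98616365-98616728 and chr17:5733518-5733772 nearest outside (10345 and 10353 in replicate 2).

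With the lists as deposited, few sites were listed at 72 h alone. Both 72 h libraries and neither 0 h library had a peak at 30 of 33319 regions (0.09%), against 11268 regions (33.8%) in the other direction. The 30 had a median fold of 5.38 in 72 h replicate 1 and 7.57 in replicate 2. The medians of those whole autosomal lists were 7.03 and 8.05. WT cells at 72 h had a peak in both libraries at 25 of the 30, and 15 of these had none in either WT 0 h library. In 7 of the 30, both WT 0 h libraries had a peak. Chosen after the values were seen, the strongest of those with no peak in WT naive cells were chr11:95609499-95610003, with folds of 8.58 and 14.5 in DKO and 9.64 and 17.4 in WT at 72 h, and chr11:61961873-61962422, with 9.14 and 10.6 in DKO and 12.1 and 17.2 in WT. Chromosome 15 held 5 of the 30. Among these, chr15:61239707-61240422, chr15:61502078-61502444 and chr15:62655616-62655889, also chosen after the values were seen, had no peak in WT naive cells.

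The 9613 regions found in all 4 lists allowed their order to be compared over a common set of sites. The short 72 h lists decided which sites entered, so few of the sites weakest at 0 h are among them. They were ranked by fold in each library among these same regions, and the rank was turned into a normal score (the quantile of a standard normal distribution at that rank). The 0 h replicates were close, with a median difference of 7.54 rank percentiles per region. The 72 h replicates differed by 10.8 percentiles, and libraries of different times by 11.5 to 13.3. As a description over these regions, which share library and threshold, the correlation of scores was 0.886 between the 0 h libraries, 0.762 between the 72 h libraries and 0.691 to 0.752 across times. Peaks were narrower at 72 h, with a median width of 450 and 600 bp against 891 and 931 bp at 0 h. The groups did not overlap (525 ± 106 bp against 911 ± 28.3 bp, SD, n = 2 each, exact two-sided permutation p = 0.33). Over whole autosomal lists the median width in DKO was 697.5 and 696 bp at 0 h and 447 and 499 bp at 72 h. In WT it was 676 and 661 bp, then 511 and 601 bp, so WT peaks were narrower at 72 h too. At the 9613 regions, summits lay a median of 34 bp apart between the DKO 0 h libraries. They lay 46 bp apart between the DKO 72 h libraries, and 40 to 48 bp apart across times.

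At the top of the order, much was held in common. Among the 96 highest-ranked regions of each library, 41 were shared by all 4. Both 0 h libraries had 67 in common and both 72 h libraries 65, of which 10 and 11 respectively were in the top of neither library of the other time. The highest on average was chr2:146783964-146785857, with folds of 164 and 151 at 0 h and 35.7 and 50.3 at 72 h. It was followed by chr4:135475793-135477281 (144, 138, 39.1 and 52.2), chr19:5487605-5491667 (107, 104, 28.3 and 37.5) and chr15:80778117-80779627 (102.96, 104.5, 26.4 and 35.5). These 4 were chosen for their mean rank over all 4 libraries, so their place in the order is not a result.

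**Figure D3:**
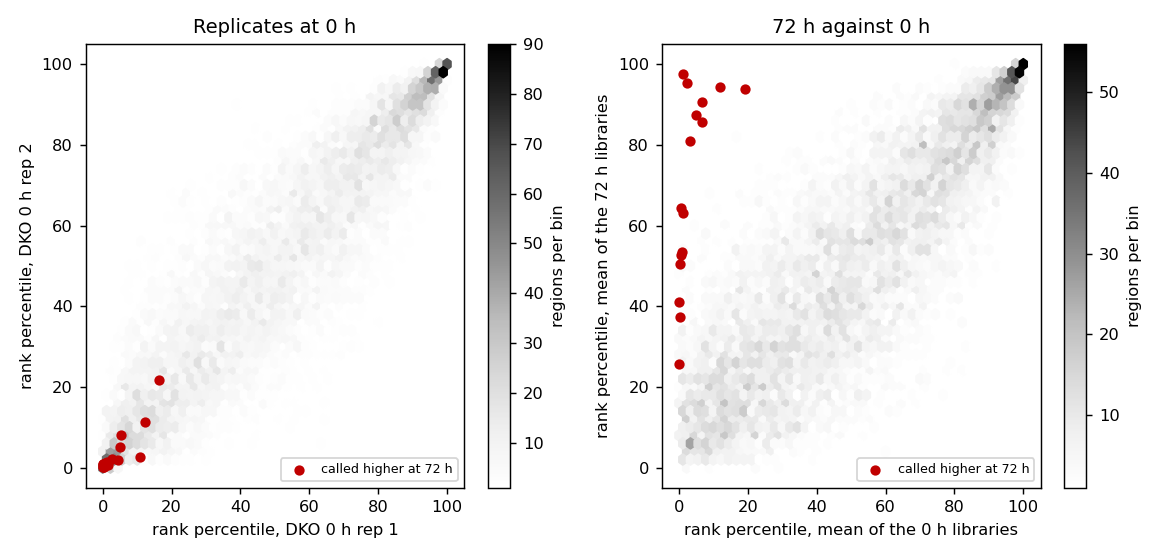
Rank percentile by fold among the 9613 regions found in all 4 DKO lists (both axes), as density of regions per bin. Left, 0 h replicate 2 against replicate 1; right, mean of the 72 h libraries against mean of the 0 h libraries, which is more scattered. Red points are the 16 regions called higher at 72 h, which have mean 0 h percentiles of 0.026 to 19.04 and lie well above the diagonal on the right.

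After culture, 16 sites moved up the order by limma's moderated test with Benjamini-Hochberg adjustment (16 of 9613 regions, 0.166%, adjusted p from 0.0159 to 0.0495), and 0 moved down (0%). At an unadjusted p under 0.05 there were 810 regions higher (8.43%) and 718 lower (7.47%). Ranks of the 72 h libraries lay wholly above those of the 0 h libraries at 2304 regions (24%) and wholly below at 2375 (24.7%). The 16 lay on 10 chromosomes. At 13 of them both 0 h libraries were below the 10th percentile, and at 72 h the mean percentile ran from 25.6 to 97.6. The 11268 naive sites with no peak at 72 h could not enter, and sites weak at 0 h entered only where they were listed at 72 h, so the balance of upward and downward calls depends on this choice of regions. With lists shortened to equal length 1 region was called, and ranking by −log10 p called 52 higher and 15 lower. Without 0 h replicate 1 or replicate 2 no region was called, and the same held with replicate number as a block. Without 72 h replicate 1 or replicate 2, when the lone library is assumed to vary as the 0 h libraries do, the counts were 519 (262 higher and 257 lower) and 930 (443 higher and 487 lower).

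The largest shift was again at chr9:107937656-107938231, a 576 bp region. It stood at percentiles 1.14 and 1.40 at 0 h and at 98.4 and 96.8 at 72 h, a difference in score of 4.24 (SE 0.300, limma adjusted p = 0.0159). The 72 h libraries were at the top of the order and the 0 h libraries near its foot. At chr4:46401511-46403971, percentiles of 2.70 and 2.23 at 0 h were followed by 98.5 and 92.3 (difference 3.76, SE 0.348). The listed fold there was 8.65 and 8.76 at 0 h and 17.0 and 17.6 at 72 h, higher in both 72 h libraries. Ranked by −log10 p, however, the difference at this region was 1.60 and missed the threshold (limma adjusted p = 0.0638). It was 2461 bp wide, against a median of 747.5 bp over the 16. At chr7:113380069-113380858 the percentiles were 0.0052 and 0.0468, then 38.7 and 43.1 (3.37, SE 0.327). That site began as one of the weakest of all and reached the middle of the order.

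The other regions named by the rule had the same form, with no overlap between the times. At chr18:4252145-4252633 the percentiles were 0.166 and 0.905, then 53.9 and 74.95. At chr14:25981018-25981827 they were 10.9 and 2.67, then 90.01 and 91.4. At chr4:88388731-88389257 they were 0.0988 and 0.837, then 59.5 and 46.0. The differences in score at these 3 were 3.03, 2.91 and 2.81, with adjusted p of 0.0383, 0.0383 and 0.0495 by limma. At chr8:96937137-96938019 percentiles of 5.004 and 5.02 were followed by 84.2 and 90.7, and at chr19:34657322-34658014 percentiles of 12.4 and 11.4 by 93.6 and 95.2. A second called region, chr19:34681588-34682511, lay close to the last one and went from 16.3 and 21.8 to 95.05 and 92.6. A rise in rank was not always a rise in listed fold. At this second region the folds were 14.3 and 16.7 at 0 h and 13.5 and 17.8 at 72 h. At chr8:96937137-96938019 they were 10.1 and 10.9, then 10.6 and 16.9. At chr18:4252145-4252633 both 72 h folds were higher (4.93 and 7.09, then 7.44 and 13.2). The 7 not listed here by position had differences between 2.45 and 2.76.

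WT cells showed shifts at many of the same sites. In WT, limma called 45 of 15967 regions higher (0.282%) and 7 lower (0.0438%) at an adjusted p under 0.05. Of the 16, 11 had a peak in all 4 WT lists, and at all 11 the WT libraries at 72 h ranked above both WT libraries at 0 h. This was so at 24.2% of all WT regions, but that share covers sites of every rank. Most of the 16 stood low at 0 h in DKO, 13 of them below the 10th percentile in both libraries. The share at WT regions of like rank was not measured. At chr9:107937656-107938231 the WT percentiles were 9.33 and 29.6 at 0 h and 99.6 and 99.5 at 72 h. Of the other 5, 3 had no peak in either WT 0 h library, and both WT libraries had a peak at 72 h at all 16. The interaction of time and genotype was called at 0 of 9363 regions found in all 8 CTCF libraries (0%, limma with Benjamini-Hochberg adjustment), with 652 at an unadjusted p under 0.05 (6.96%). Its lowest adjusted p over the 11 was 0.643. As a description over the 9363 regions, the DKO and WT shifts, which share no library, correlated at 0.474. Only sites listed at 72 h in both genotypes entered it, and its dependence on rank at 0 h was not tested.

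No site passed the threshold in the downward direction, and the 8 with the largest differences are given as values. At chr11:115947821-115949416 the percentiles were 83.3 and 92.6 at 0 h and 1.09 and 9.59 at 72 h (difference -3.01, SE 0.409, limma adjusted p = 0.0521). At chr9:72255820-72256917 they were 44.3 and 41.8, then 0.650 and 0.0364 (-2.76, adjusted p = 0.0521). The folds at 72 h at that site, 4.11 and 4.02, were close to 4, the lowest fold that any CTCF list held. In WT cells the percentiles of the first were 91.8 and 67.4 at 0 h and 81.3 and 79.8 at 72 h, which overlap. Those of the second were 68.0 and 52.1, then 49.5 and 47.0, lower at 72 h without overlap. The interaction missed the threshold at both (adjusted p = 0.493).

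One of the 8 passed the threshold in WT cells. At chr7:135526798-135528172, the fold in DKO was 51.3 and 55.2 at 0 h and 5.03 and 10.7 at 72 h, and percentiles went from 96.7 and 97.3 to 13.3 and 57.3 (difference -2.35, limma adjusted p = 0.0968). In WT the percentiles were 98.4 and 99.3, then 5.43 and 6.70 (limma adjusted p = 0.0221). The 72 h libraries of DKO differed widely from each other there, and also at chr10:81065193-81066472, at percentiles 0.650 and 59.6. At chr10:81065193-81066472 the fold in 72 h replicate 1 was 4.11, close to the lowest listed. The rest were chr13:58388667-58389797, chr19:57224587-57225503, chr3:115345095-115346587 and chr10:127181447-127182432. Their folds in 72 h replicate 1 were also close to the lowest listed, at 4.11, 4.11, 4.11 and 4.03. In 72 h replicate 2 they were 4.02, 5.83, 7.94 and 4.26. Of all 8 regions, 2 were lower at 72 h in WT without overlap. This was so at 4067 of all 15967 WT regions (25.5%), a share that covers sites of every rank. At 2 of the 8 the mean WT difference in score was above 0.

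**Figure D4:**
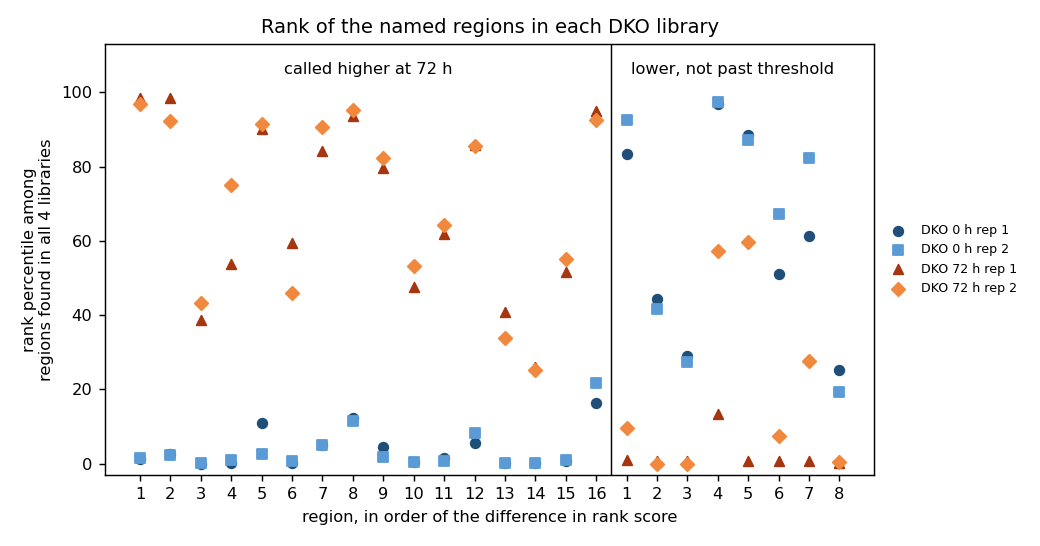
Rank percentile (y axis) of the 16 regions called higher at 72 h and of the 8 regions with the largest downward differences, which did not pass the threshold (x axis, ordered by difference in score), with 1 point per DKO library. The 72 h points lie above the 0 h points in each of the 16, with mean percentiles of 25.6 to 97.6 at 72 h.

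Scores were also averaged over 838 windows of 1 Mb with at least 5 regions found in all 4 lists. Limma with Benjamini-Hochberg adjustment called 23 windows higher (2.74%) and 16 lower (1.91%) at 72 h. With lists shortened to equal length, 0 of 577 windows were called, with 73 at an unadjusted p under 0.05 by limma. Groups did not overlap in 196 windows (23.4%) upward and 235 (28%) downward. The largest upward shift was at chr2:135154561-135975403, where mean scores were -1.01 and -0.891 at 0 h and -0.177 and 0.0963 at 72 h (difference 0.912, SE 0.137, adjusted p = 0.00175), and each of its 5 regions was higher at 72 h without overlap. At chr14:69584712-69998566 the scores were -0.373 and -0.342, then 0.473 and 0.523, and the mean shift was upward at all 8 regions. The window chr19:34226111-34741559 held 2 of the 16 called regions, and 9 of its 11 regions shifted upward, from a median percentile of 65.8 to 93.8. With shortened lists its difference was 0.421 (limma adjusted p = 0.239), against 0.805. The fourth was chr17:80062823-80964468 (difference 0.723, adjusted p = 0.0102).

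The windows that fell were led by chr10:81012853-81634350, with mean scores of 0.532 and 0.753 at 0 h and -0.714 and 0.154 at 72 h (difference -0.922, SE 0.200, limma adjusted p = 0.0122). There the 72 h libraries again stood well apart from each other. At chr14:51417915-51796528 all 6 regions were lower on average (-0.754, adjusted p = 0.00601). At chr9:72255820-72892828 the scores were 0.402 and 0.447, then -0.244 and -0.401, and 7 of 8 regions were lower. With shortened lists its difference was -0.291 (limma adjusted p = 0.463), against -0.747. The fourth was chr4:124478732-124810213 (-0.734, adjusted p = 0.00601). With shortened lists the differences in the chr10, chr14 and chr4 windows changed less, at -0.842, -0.705 and -0.751. These too missed the threshold there (limma adjusted p = 0.174, 0.125 and 0.110). Without 0 h replicate 1 or replicate 2 the number of windows called was 8 and 6, without 72 h replicate 1 or replicate 2 it was 95 and 115, and with replicate number as a block it was 2. Adjacent regions less than 10 kb apart had shifts that correlated at 0.0755 over 1303 pairs, and those 200 to 1000 kb apart at -0.0118 over 1842 pairs, given as a description.

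WT cells shifted the same way in most of these windows. Of the 23 windows higher in DKO, the mean WT difference was above 0 in 22, and in 15 the WT groups did not overlap. Of the 16 lower in DKO it was below 0 in 15, and in 8 the groups did not overlap. Over all 836 windows with at least 5 regions in each genotype, WT groups lay apart upward in 23.4% and downward in 25.1%. The mean WT difference was above 0 in 47.2% of the 836. Shares in WT at windows of like rank at 0 h were not measured. WT differences in the 4 leading upward windows were 0.331, 0.148, 0.351 and 0.0162, in windows chosen for their size in DKO. The difference between genotypes was not tested by window.

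**Figure D5:**
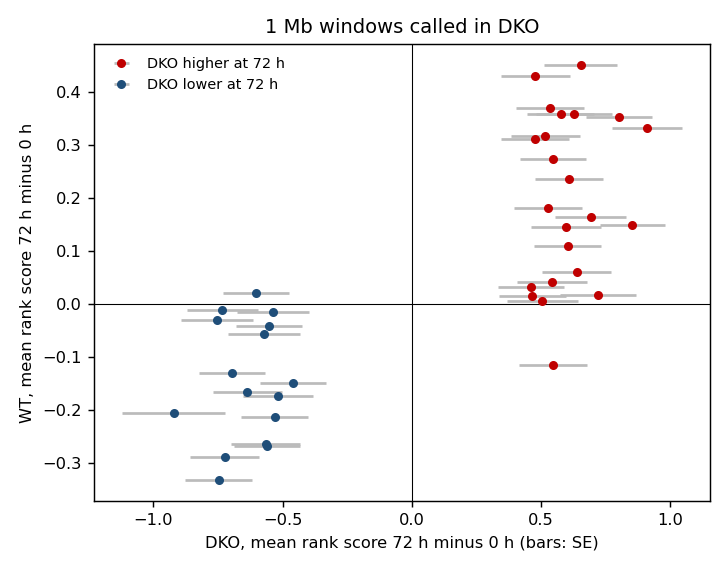
Mean rank score at 72 h minus 0 h in DKO (x axis, bars are SE) and in WT (y axis) for the 39 windows of 1 Mb called in DKO, 23 higher (red) and 16 lower (blue). WT differences have the same sign in 22 and 15 of these.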

How the data were processed

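Each library had its own narrowPeak list, deposited by the authors. The tools were Bowtie2 2.2.5, MACS2 2.1.1 and FastQC, on build mm9, per the submitters' processing notes. The control and the calling thresholds are not stated in the sources used here. The deposited column used as fold was read as enrichment over local background from the usual narrowPeak layout, which no header or label states, and every CTCF list held folds of 4 or more. Each peak's −log10 p and −log10 q are as deposited. The deposited score column was not used, and summits are distances from the peak start as deposited. These values served to rank and filter peaks within a list, and folds of different libraries were not tested against each other.

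Lists were shortened by −log10 p to the length of the shortest, then limited to chromosomes 1 to 19. The highest-fold peak stood for a library in a region. Scores were fitted with limma 3.58.1 in R 4.3.3 and called at an adjusted p under 0.05. Both steps were run by region on simulated scores, whose outcome is not given here. The window and interaction fits were not simulated. Python 3.11.15, scipy 1.17.1 and matplotlib 3.10.9 did the rest. Named per direction were the 8 called regions of highest mean rank percentile, the 4 densest windows of 500 kb, the 8 largest rank shifts, the 4 largest window shifts, and the 2 regions nearest each side of the last position kept. The 4 highest-ranked regions found in all 4 lists were named as well. The members, lists and rules were chosen with earlier results of these data known. The neighbour measure was chosen after the files were seen. Alternatives were other list lengths, columns, overlaps, scales and window sizes, a replicate block and each library left out.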

Additional observations from a re-analysis of the deposited data

Results flagged for a closer look

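The X chromosome was outside the comparison, which used chromosomes 1 to 19. On it, 17 of 859 regions (1.98%) had a peak in both DKO 72 h libraries and in neither DKO 0 h library with the lists as deposited, against 0.09% of autosomal regions. The IgG control had 0 peaks at these 17. Their highest folds were 19.6 and 36.2 in the 72 h libraries, against 9.63 and 17.1 among the 30 autosomal regions of this kind. The labels used here do not state the sex of the animals.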

How the results depend on the processing

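The labels do not say that replicate numbers pair the samples, and the deviations of same-numbered libraries correlated at 0.0192 over 9613 regions. With the replicate block, 0 regions and 2 windows were called in DKO, against 16 and 39, and 0 at the interaction, which was 0 under every alternative run. Naive-only and 72 h-only regions numbered 11268 and 30 with the lists as deposited, 10657 and 19 with −log10 q of at least 5, and 584 and 425 with 5000 peaks. With each library left out they ranged from 1393 to 1846 and from 1004 to 1686, since 1 library then stood for its group. Called regions numbered 67 ranked by −log10 p, 1 with shortened lists and 0 ranked within whole lists; 14 of the 16 were among the 67. Called windows numbered 69, 0 and 749 under these settings, the last all lower, since whole 0 h lists are longer and place the same sites higher. Under it the windows chr2:135154561-135975403, chr14:69584712-69998566 and chr17:80062823-80964468 reversed to -0.202, -0.0846 and -0.341. Leaving out a library gave 0 to 930 regions and 6 to 115 windows. Peak number differences ranged from -20030.5 to -14279.5 and width differences from -461 to -311 bp. The fall with density was 21.5 points with neighbours within 20 kb and 19.96 ranked by −log10 p, and 12.3 to 18.5 without single libraries; these were added after seeing the data. Depth was unknown, so an absent peak shows that none was called.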
